A study of Mus musculus with 2 samples.

Results

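Fibroblast growth factors (FGFs) and their receptors were examined in RNA from whole spinal cord at postnatal day 7. The 10 genes were taken by name from the 51826 genes of the deposited tables, together with the 96 transcripts listed under their gene IDs. They were 3 receptors (Fgfr1, Fgfr2 and Fgfr3), 4 secreted ligands (Fgf1, Fgf2, Fgf9 and Fgf18) and 3 factors that stay inside the cell (Fgf12, Fgf13 and Fgf14). The study compared 1 conditional knockout library (cKO), in which Olig1-Cre met floxed exon 3 of Secisbp2l, with 1 wild-type library (WT), both of the C57BL/6 strain. Olig1-Cre is a driver used for the oligodendrocyte lineage, while the measured RNA came from all cells of the cord together. The number of animals behind each library is not in the labels. No difference below has a replicate check, since each genotype has 1 library, and no p-values are given. Intervals are 95% intervals that cover counting error only.

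FGF receptors are tyrosine kinases of the cell surface. A secreted FGF binds the outer part of a receptor together with heparan sulphate chains, receptors pair, and the kinases signal through the adaptor FRS2 to the RAS and MAP kinase cascade, which in turn raises transcription of inhibitors such as Sprouty proteins. In the central nervous system Fgfr1 and Fgfr2 are known from the oligodendrocyte lineage, where FGF signals act on precursor division and on the thickness of the myelin sheath, and Fgfr3 is known from astrocytes and glial precursors. FGF12, FGF13 and FGF14 are relatives that are not secreted. They bind the cytoplasmic tail of voltage-gated sodium channels in neurons, and FGF13 also binds microtubules.

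The ligand specificity of a receptor depends on the exon that codes for the last part of the third immunoglobulin loop. Exon IIIb and exon IIIc are alternatives in Fgfr1, Fgfr2 and Fgfr3, and the IIIc form is the one known from mesenchymal and neural cells. The receptor transcripts are grouped by them.

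Transcripts of Fgfr2 also differ in 2 further exons, which code for the first immunoglobulin loop (267 bases) and for the acid box, a stretch of acidic residues that follows it. The acid box exon is shown because the main Fgfr2 transcripts differ by it. Sequences were read from the GENCODE M21 transcripts (GRCm38) and run 5′ to 3′ on the strand of the gene. The acid box exon of Fgfr2 is at chr7:130241200-130241277 on the minus strand. Capitals mark its in-frame codons that begin with GA, which code for aspartate or glutamate.
Fgfr2 acid box: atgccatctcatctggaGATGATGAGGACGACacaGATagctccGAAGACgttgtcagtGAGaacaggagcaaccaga
The intracellular factors differ at their start, where alternative first exons join a common core. The 2 first coding stretches of Fgf14 are at chr14:124192329-124192521 (Fgf14-201) and chr14:124676510-124676717 (Fgf14-202), both on the minus strand, and the main one of Fgf13 is at chrX:59133877-59134063 on the minus strand. Capitals mark the start codon.
Fgf14-201: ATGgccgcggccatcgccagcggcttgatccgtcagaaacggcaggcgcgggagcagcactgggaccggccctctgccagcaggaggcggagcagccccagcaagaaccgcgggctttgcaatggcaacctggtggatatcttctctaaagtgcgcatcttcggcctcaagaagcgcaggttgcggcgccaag
Fgf14-202: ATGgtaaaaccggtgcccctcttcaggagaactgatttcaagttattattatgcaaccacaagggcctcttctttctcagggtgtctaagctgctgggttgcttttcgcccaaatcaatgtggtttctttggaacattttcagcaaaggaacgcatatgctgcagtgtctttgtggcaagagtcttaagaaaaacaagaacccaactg
Fgf13-201: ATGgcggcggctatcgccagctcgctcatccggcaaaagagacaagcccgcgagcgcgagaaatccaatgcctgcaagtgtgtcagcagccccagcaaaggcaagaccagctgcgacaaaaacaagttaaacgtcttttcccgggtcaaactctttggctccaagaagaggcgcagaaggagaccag
Over the first 45 bases, compared without gaps, Fgf13-201 and Fgf14-201 shared 32 bases, whereas Fgf14-201 and Fgf14-202 shared 15. The contrast was smaller over the whole first coding stretches, aligned with gaps. There Fgf13-201 and Fgf14-201 shared 113 of 185 aligned bases, and Fgf14-201 and Fgf14-202 shared 101 of 182.

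The libraries held 55179026 (cKO) and 42875143 (WT) estimated counts. Counts were read as about 2 per sequenced fragment. The targeted gene Secisbp2l stood at 466 CPM in cKO and 588 CPM in WT, where CPM is counts per 1000000 counts of the library after TMM scaling. A whole-gene estimate does not check the loss of exon 3. Xist, the female-specific RNA of X inactivation, had 13 counts in cKO and 35182 in WT, while Y-linked Ddx3y had 4280 in cKO and 0 in WT. The libraries thus differ in sex as well as genotype, and these cannot be told apart for any gene, autosomal ones included. Fgf13 is the only X-linked gene of the 10. Of the markers of 10 cell types, none was at 0 counts in either library.

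All 10 genes were measured, meaning a mean of at least 1 CPM over both libraries, as were 15917 genes in all. Levels were compared between genes in TPM, a share of all transcripts scaled to 1000000 after division by transcript length. Fgf13 was the most abundant, at 244 TPM in cKO (interval 237 to 250) and 200.2 TPM in WT (194 to 207). Fgf12 followed at 98.9 and 89.4 TPM, Fgfr3 at 91.1 and 80.0 TPM, and Fgfr1 at 65.2 and 61.1 TPM (cKO and WT in each case). Fgf2 was the lowest, at 5.48 TPM in cKO and 5.62 TPM in WT. The other 5 genes lay between 15.5 and 43.3 TPM in cKO and between 14.7 and 41.3 TPM in WT. In the order of levels, the counting intervals of neighbours overlapped for Fgfr2 and Fgf14 in cKO, and for Fgf1 and Fgfr2 and for Fgf14 and Fgf9 in WT. All other neighbours were apart in both libraries.

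**Figure D1:**
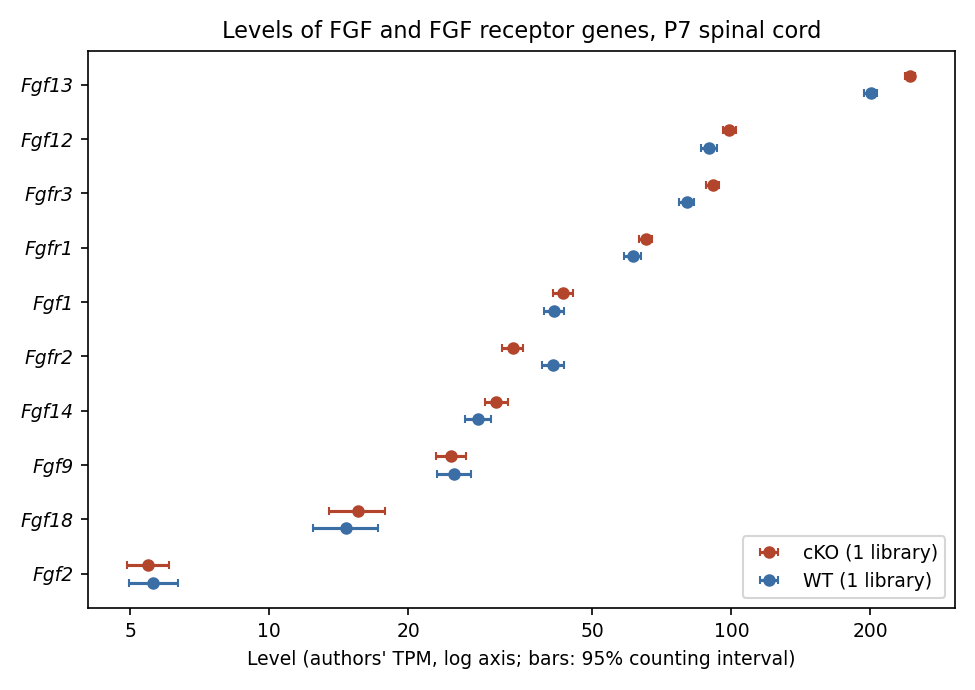
Level of each gene in TPM on a log axis, with 1 point for the cKO library and 1 for the WT library and bars for the 95% counting interval. Fgf13 is highest in both libraries, at 244 TPM in cKO and 200.2 TPM in WT, and Fgf2 lowest, at 5.48 and 5.62 TPM.

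The 10 genes differed little between the libraries. A gene was called lower or higher if its ratio was 1.5-fold or more and its interval excluded a ratio of 1. By this size rule 0 of the 10 were lower in cKO, beside 3.42% of all measured genes, and 0 were higher, beside 2.46% (in either direction 0, beside 5.88%). The rule is not a test, and the counts of 0 were the same under each processing alternative run. The log2 ratios of cKO over WT lay between -0.32 and 0.19, with 3 genes below 0, 7 above 0 and a median of 0.11, against a median of 0.01 over all measured genes (quartiles -0.14 and 0.15). The interval left out a ratio of 1 for 6 of the 10, beside 40.3% of all measured genes. Those 6 were Fgfr2 and Fgf1 (lower) and Fgfr1, Fgfr3, Fgf12 and Fgf13 (higher).

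**Figure D2:**
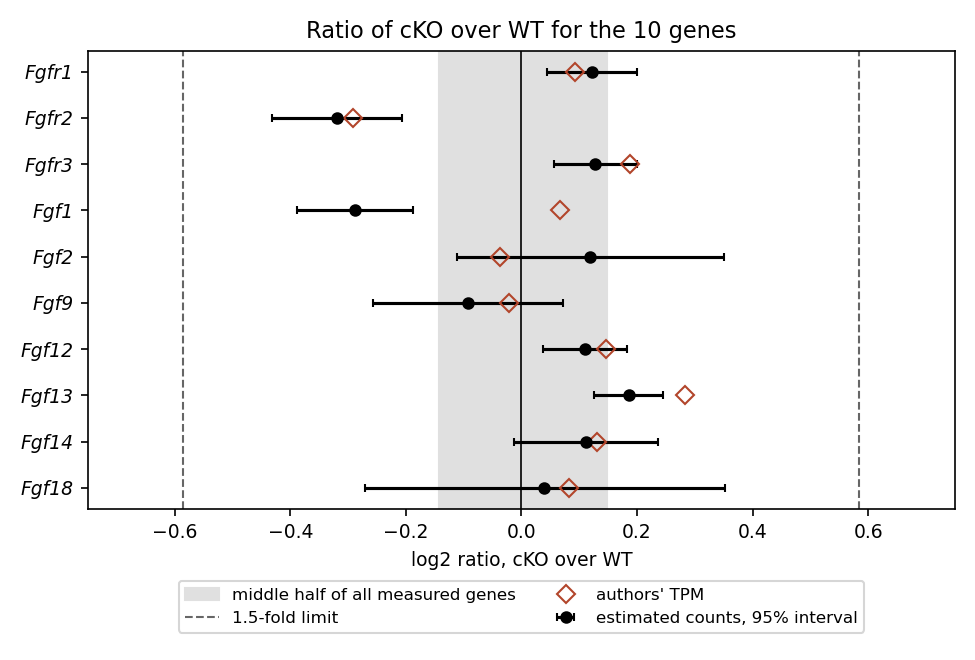
The log2 ratio of cKO over WT for each gene, from estimated counts with 95% counting intervals (filled points) and from the authors' TPM (open diamonds). The grey band spans the quartiles of all measured genes (-0.14 and 0.15) and the dashed lines are the 1.5-fold limit. No gene reaches the limit, and Fgf1 lies on opposite sides of 0 in the 2 units (-0.29 and 0.07).

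Among the receptors, Fgfr2 had a ratio below 1 while Fgfr1 and Fgfr3 had ratios slightly above 1, all short of the size rule. Fgfr2 (ENSMUSG00000030849, chromosome 7) had 2612 counts, or 47.4 CPM, in cKO, and 2535 counts, or 59.1 CPM, in WT, since the cKO library is the deeper one. The log2 ratio was -0.32 (interval -0.43 to -0.21), or 1.247-fold lower, and 10.6% of measured genes had a lower ratio. Fgfr1 (ENSMUSG00000031565, chromosome 8, 25513654 to 25575718) had 118 CPM in cKO and 108 CPM in WT, a log2 ratio of 0.12 (0.04 to 0.20). Fgfr3 (ENSMUSG00000054252, chromosome 5, 33721674 to 33737068) had 139 CPM in cKO and 127 CPM in WT, a log2 ratio of 0.13 (0.06 to 0.20). Of the TPM summed over the 3 receptors, Fgfr2 held 17.7% in cKO and 22.6% in WT, Fgfr3 held 48.0% and 43.9%, and Fgfr1 held 34.3% and 33.5%. The summed level itself was 189.9 TPM in cKO and 182 TPM in WT.

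Markers of mature oligodendrocytes were lower in cKO as well. Of these, 12 of 12 were lower by the size rule, beside 3.42% of all measured genes, with log2 ratios from -1.66 to -0.65. Their summed level was 8727 CPM in cKO and 18120 CPM in WT. Mbp, which encodes a main protein of the myelin sheath, had a ratio of -0.89. The 8 precursor markers had a median of -0.13 from counts and 0.002 on TPM, with Gpr17, a receptor of committed precursors, lower (-0.64), and the 8 astrocyte markers one of -0.05 from counts and 0.02 on TPM. Medians were also below 0 for markers of meninges and fibroblasts (-0.23), ependyma (-0.20), and cartilage and bone (-0.72). The part of any of these cells in the Fgfr2 difference was not tested. In whole tissue, fewer cells of a type and less RNA per cell cannot be told apart. The deposited Fgfr2 gene reaches from 130162451 to 133123350 because of 1 transcript with 0 counts in both libraries that runs into exons of Ctbp2, and with the Ctbp2 counts added the log2 ratio was -0.27.

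The authors' estimate placed the Fgfr2 counts on different transcripts in the 2 libraries. Fgfr2-207, which has exon IIIc and lacks both the first loop exon and the acid box exon, had 830 counts in cKO and 1823 in WT, a log2 ratio of -1.50 (-1.67 to -1.33). Fgfr2-215, the form of 840 codons with both of those exons and IIIc, had 1119 counts in cKO and 14 in WT, a log2 ratio of 5.96 (4.91 to 7.28). Their shares of the gene's counts were 31.8% in cKO and 71.9% in WT for Fgfr2-207, and 42.8% and 0.55% for Fgfr2-215. Fgfr2-226, which skips both IIIb and IIIc and is annotated as a target of nonsense-mediated decay, had 448 counts in cKO and 151 in WT (log2 ratio 1.21, 0.82 to 1.60). The 3 forms thus differ in opposite directions within a gene whose total differed by -0.32.

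**Figure D3:**
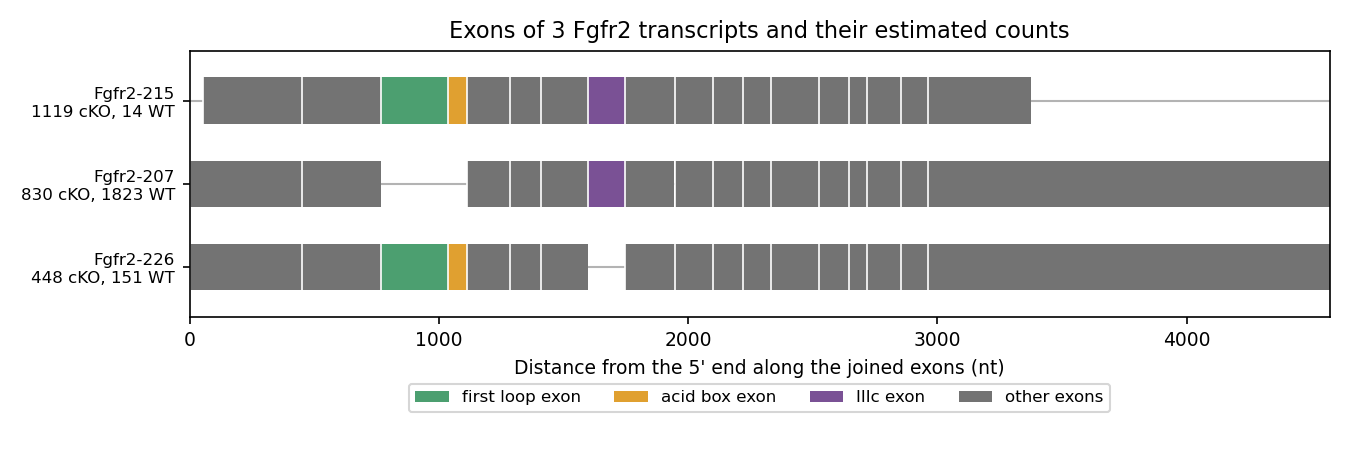
Exons of Fgfr2-215, Fgfr2-207 and Fgfr2-226 drawn to scale along their joined exons, in nucleotides from the 5′ end, with gaps for exons that a transcript lacks and the estimated counts in each library at the left. Fgfr2-207 lacks the first loop and acid box exons, and Fgfr2-226 lacks exon IIIc.

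Grouped by exon, the Fgfr2 coding transcripts with both the first loop and acid box exons held 1176 of 2023 counts in cKO (58.1%, Wilson interval 55.1% to 61.1%) and 180 of 2234 in WT (8.06%, 6.60% to 9.80%). Those with neither exon held 41.2% in cKO and 89.0% in WT. Fgfr2-226 also has both exons but is not among the coding transcripts, so its counts are left out here. Of the 180 WT counts, 14 were on Fgfr2-215, and the other transcripts of that class each had a mean below 1 CPM. In Fgfr1 the coding transcripts with both exons held 96.0% in cKO and 92.7% in WT, and in Fgfr3 84.0% and 82.6%. Each receptor had most of its counts on the IIIc form. Of counts on transcripts that span the third loop, IIIc alone was present in 79.8% in cKO and 81.6% in WT for Fgfr2, in 93.3% and 94.4% for Fgfr1, and in 99.5% and 99.0% for Fgfr3. IIIb alone was present in 1.58% in cKO (1.02% to 2.44%) and 10.9% in WT (9.30% to 12.8%) for Fgfr2, where 10 annotated transcripts share the exon, in 2.17% and 0.39% for Fgfr1, and in 0.48% and 0.997% for Fgfr3. None of those 10 Fgfr2 transcripts reached a mean of 1 CPM, and together they had 39 counts in cKO and 261 in WT. The intervals of these shares do not cover error in the division of reads between transcripts.

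The shares of the main Fgfr1 and Fgfr3 transcripts differed less than those of Fgfr2. Fgfr1-201, the form of 822 codons, had 4380 counts in cKO and 2751 in WT and held 67.4% and 59.2% of the gene (log2 ratio 0.31, 0.21 to 0.41). Fgfr1-202, whose acid box exon is 84 bases long against 90 in Fgfr1-201, held 12.2% in cKO and 14.1% in WT. Fgfr1-203, which lacks the first loop exon, had 94 counts in cKO and 253 in WT, a log2 ratio of -1.79 (-2.31 to -1.30). Fgfr1-214, a IIIb form that also lacks the first loop exon, had 124 counts in cKO and 15 in WT, a log2 ratio of 2.69 (1.59 to 4.01). Both met the size rule, with less than 10% of the gene's counts. All coding Fgfr1 transcripts without the first loop exon together had 218 counts in cKO and 268 in WT (-0.66, -1.04 to -0.28). Fgfr3-209, Fgfr3-205, Fgfr3-210 and Fgfr3-202, which each held at least 10% of that gene in a library, had shares that differed by at most 0.72 percentage points.

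**Figure D4:**
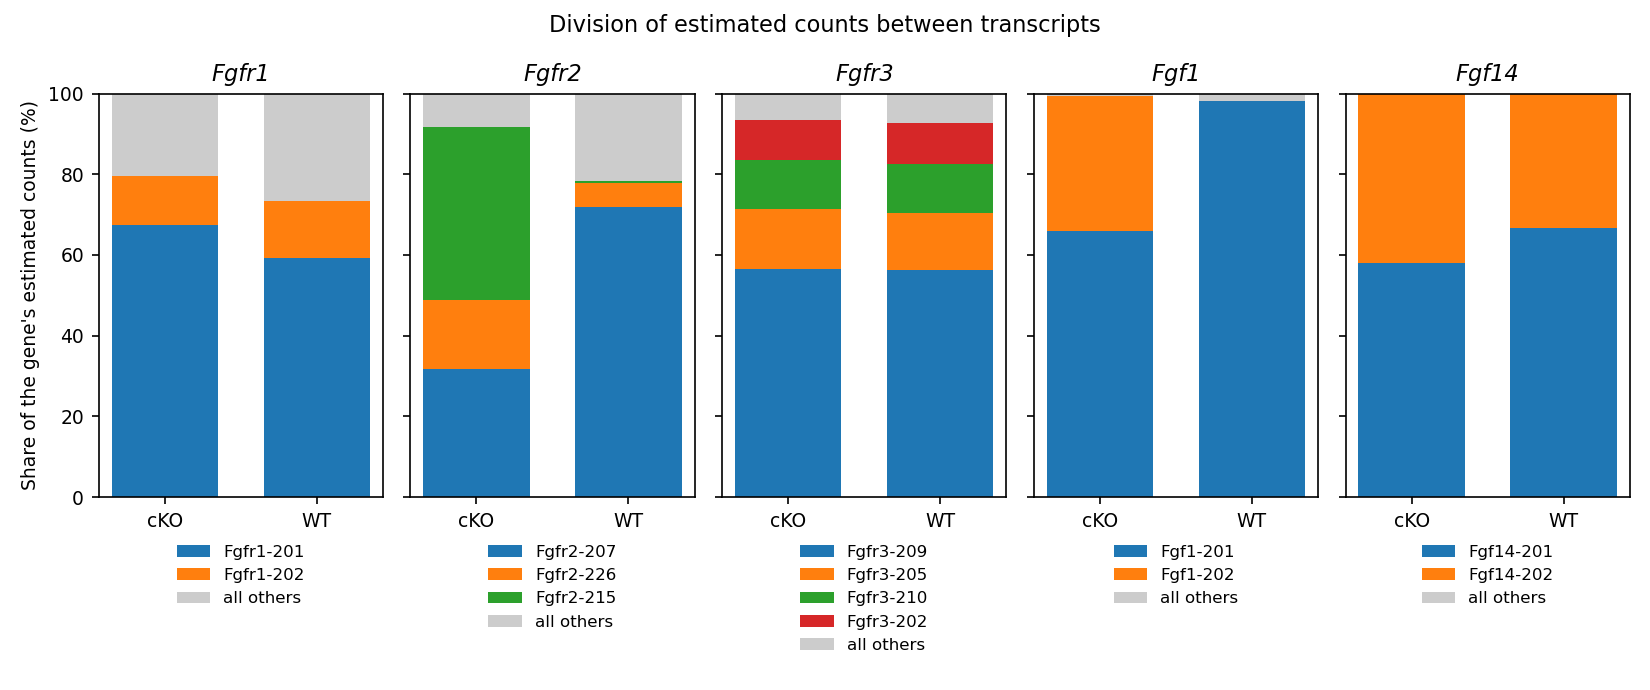
Share of each gene's estimated counts held by its transcripts (percent), with the cKO library at the left of each pair and the WT library at the right. Coloured parts are transcripts with at least 10% in either library and grey is the rest. Fgfr2-215 holds 42.8% in cKO and 0.55% in WT, while the bars of Fgfr3 are nearly alike.

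Of the secreted ligands, Fgf1 was the only one whose interval left out a ratio of 1, and its direction depended on the unit. Fgf1 (ENSMUSG00000036585, chromosome 18, 38838673 to 38929404, minus strand), which binds all FGF receptors, had 3311 counts, or 60.0 CPM, in cKO and 3145 counts, or 73.3 CPM, in WT. The log2 ratio was -0.29 (-0.39 to -0.19), whereas the authors' TPM, at 43.3 in cKO and 41.3 in WT, gave 0.07. The same division of counts appears in its transcripts. Fgf1-201, of 3981 bases, had 2182 counts in cKO and 3090 in WT (log2 ratio -0.86, -0.98 to -0.75). Fgf1-202, of 2449 bases, had 1111 counts in cKO and 0 in WT, a log2 ratio of 7.17 when WT is set to a floor of 3 fragments (6 counts), while the lower 95% limit of the ratio was 6.87. Both code for the same 155 codons and share exons 2 and 3. They differ in their noncoding exon 1, of 225 bases in Fgf1-201 and 197 in Fgf1-202, and in the length of exon 4, of 3449 and 1945 bases. A gene's TPM was the sum over its transcripts to within 0.082%, so counts on the shorter transcript weigh more in it.

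The other ligands were close between the libraries. Fgf9 (ENSMUSG00000021974, chromosome 14), a ligand with high affinity for FGFR3 that neurons make, had 24.2 CPM in cKO and 25.8 CPM in WT, a log2 ratio of -0.09 (-0.26 to 0.07). Its transcript with the full 208 codons, Fgf9-201, held 32.3% of the counts in cKO and 31.6% in WT, and Fgf9-203, annotated with 91 codons, held 62.2% and 64.6%. Fgf9-203 is the longer transcript, at 3593 bases against 1593. As shares of TPM the 2 forms were close, at 45.4% in cKO and 45.5% in WT for Fgf9-201, and 43.3% and 46.1% for Fgf9-203. Fgf18 (ENSMUSG00000057967, chromosome 11), which belongs to the same group of ligands as Fgf8 and Fgf17, had 7.31 CPM in cKO and 7.11 CPM in WT (0.04, -0.27 to 0.35). Fgf2 (ENSMUSG00000037225, chromosome 3), the basic FGF used to keep oligodendrocyte precursors dividing in culture, had 13.5 CPM in cKO and 12.5 CPM in WT (0.12, -0.11 to 0.35). On TPM the ratio of Fgf2 was -0.04, still inside that interval. Fgf2 overlaps exons of antisense Nudt6, which had 122 counts in cKO and 95 in WT, and the strand setting of the counting is not stated in the labels. The same limit holds for Fgfr3, which overlaps antisense G630022F23Rik (386 counts in cKO and 253 in WT). It also holds for Fgfr1 with Gm16159 (8 and 6) and Fgf14 with Gm28932 (3 and 0).

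The intracellular factors had log2 ratios between 0.11 and 0.19, all short of the size rule. Fgf13 (ENSMUSG00000031137, X chromosome, 59062145 to 59568071) had 204 CPM in cKO and 179.8 CPM in WT, a log2 ratio of 0.19 (0.13 to 0.25), or 0.28 on TPM. Fgf12 (ENSMUSG00000022523, chromosome 16) had 132 CPM in cKO and 123 CPM in WT (0.11, 0.04 to 0.18). Fgf14 (ENSMUSG00000025551, chromosome 14), the gene mutated in a hereditary cerebellar ataxia in humans, had 45.3 CPM in cKO and 41.9 CPM in WT (0.11, -0.01 to 0.24). The 10 general neuron markers had a median of 0.16, with 8 above 0. Medians were also above 0 for markers of endothelium and pericytes (0.14), Schwann cells (0.12) and motor neurons (0.01). The part of any of these cells in the ratios of the intracellular factors was not tested.

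The start forms of these factors were also compared. Fgf13-201, of 245 codons, held 84.5% of the Fgf13 counts in cKO and 86.9% in WT. Of the Fgf13 TPM, in which shorter transcripts weigh more, it held 65.1% and 69.9%. Fgf13-202, the form of 192 codons with the short first coding stretch of 28 bases, held 4.96% and 4.43%, and all 6 measured Fgf13 transcripts had log2 ratios between 0.15 and 0.50. For Fgf14 the shares moved further. Fgf14-201, of 247 codons, had 1450 counts in cKO and 1199 in WT (-0.09, -0.25 to 0.07), and Fgf14-202, of 252 codons, had 1048 and 600 (0.44, 0.23 to 0.65). Fgf14-202 held 42.0% of the counts in cKO (Wilson interval 39.2% to 44.7%) and 33.4% in WT (30.3% to 36.5%). The Fgf12 counts stood on Fgf12-201, of 243 codons.

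Transcripts past the size rule were common in the whole table. Of the 33 measured transcripts of the 10 genes, 3 were lower in cKO by the size rule, beside 12.9% of all measured transcripts, and 4 were higher, beside 13.2%. The 7 together are 21.2% of the 33, beside 26.1% of all 32757 measured transcripts in either direction, so the share among these genes was not above that of the table. The 3 lower ones were Fgfr2-207, Fgf1-201 and Fgfr1-203, and the 4 higher ones Fgfr2-215, Fgfr2-226, Fgf1-202 and Fgfr1-214. All 7 belong to Fgfr1, Fgfr2 and Fgf1.

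The rest of the pathway was described with 6 lists, of which 85 genes were measured, with a median log2 ratio of 0.07. Past the size rule lay 1 lower gene, beside 3.42% of all measured genes, and 2 higher genes, beside 2.46%, counts near the share over all genes. Of 7 measured further ligands and binding proteins, 0 met the rule, although under upper quartile scaling 1 was higher. Fgf11, the fourth intracellular factor, stood at 42.0 CPM in cKO and 40.9 CPM in WT, and Fgf10 at 8.98 and 7.51 CPM. Of 8 measured receptors and co-receptors, 1 was higher, Fgfr4, on 138 counts in cKO and 62 in WT (0.79, 0.16 to 1.45). Ncam1 and Cdh2, adhesion molecules that bind FGF receptors, had ratios of 0.14 and 0.18.

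Heparan sulphate and signalling genes gave 1 further gene each. Of 24 measured proteoglycan and heparan sulphate enzyme genes, the glypican Gpc2 was lower, on 163 counts in cKO and 382 in WT (-1.59, -1.98 to -1.21), but it shares exons with Gm43720, and the summed locus had a ratio of -0.22. Sdc3 and Agrn, which had the highest CPM of that list, had ratios of 0.20 and 0.09. Of 20 signal transduction genes, the small GTPase gene Nras was higher, at 103 CPM in cKO and 34.7 CPM in WT (1.57, 1.45 to 1.69). Ptpn11, a phosphatase of the cascade, had a ratio of -0.21. The list medians were 0.07 and 0.02.

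The 16 measured target and feedback genes of FGF signalling had log2 ratios between -0.25 and 0.32 and a median of 0.06. Of them 0 met the size rule, beside 5.88% of all measured genes in either direction, a count near that share. Those with the highest CPM, Spred1 and Spred2, which inhibit the RAS pathway, had ratios of -0.14 and 0.02. Of the 10 measured sodium channel genes, the partners of the intracellular factors, 0 met the rule, 8 lay above 0 and the median was 0.15. Scn8a, a main channel subunit of axons, was at 0.32. Scn2a was at -0.10 from counts and at 0.19 on TPM with a pseudocount of 0.1.

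**Figure D5:**
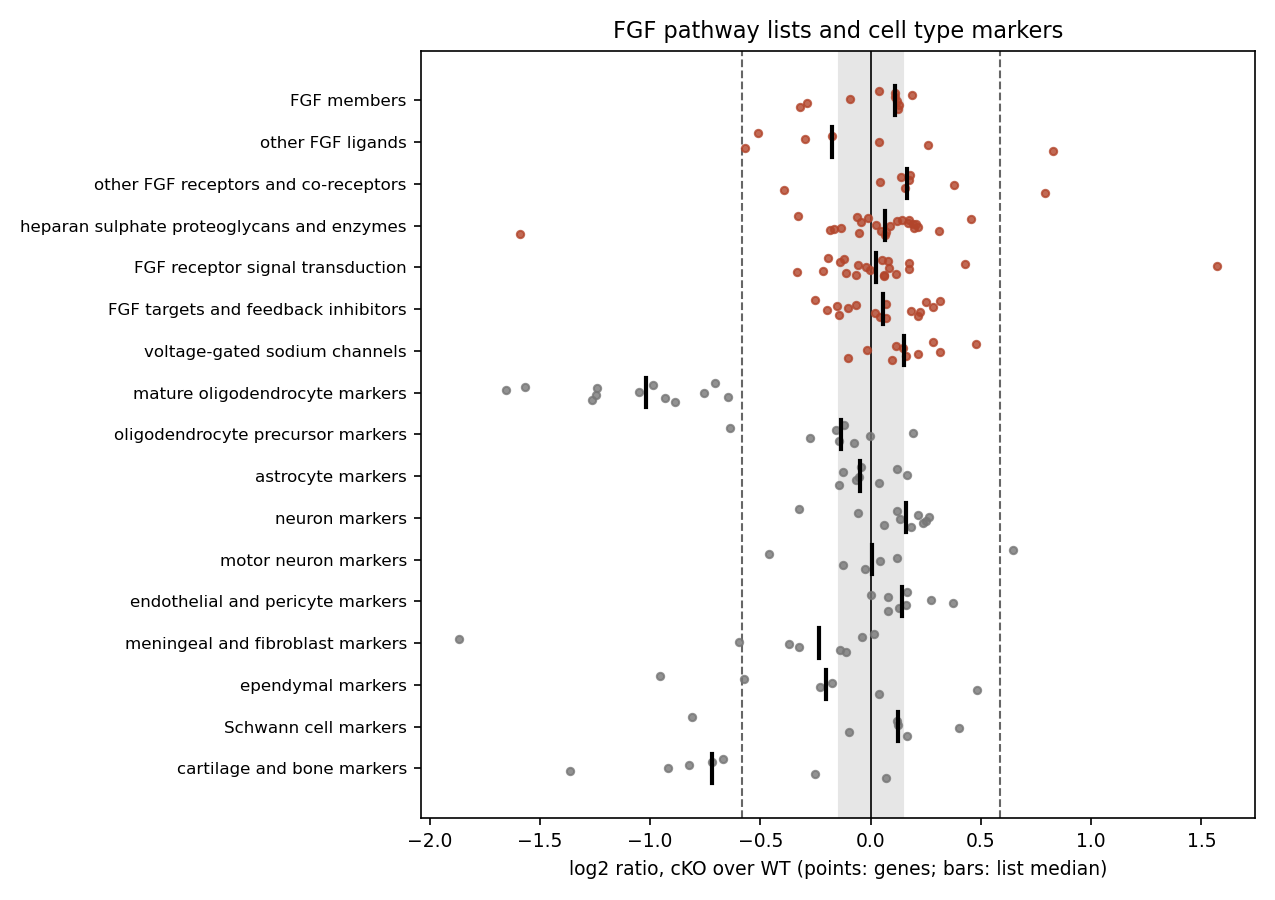
The log2 ratio of cKO over WT for each measured gene (points) of the FGF lists (red) and of cell type marker lists (grey), with list medians as bars, the quartiles of all measured genes as a band and the 1.5-fold limit as dashed lines. The FGF lists have medians between -0.17 and 0.16, while the mature oligodendrocyte markers lie between -1.66 and -0.65, with a median of -1.02.

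Markers of the remaining cell types had medians of 0.01 for motor neurons (1 of 6 higher, 0 lower), 0.14 for endothelium and pericytes (0 of 8 past the rule), -0.23 for meninges and fibroblasts (2 of 8 lower), -0.20 for ependyma (1 of 6 lower, Mia, which shares exons with Gm21983 and has a ratio of 0.46 with its counts added), 0.12 for Schwann cells (1 of 6 lower) and -0.72 for cartilage and bone (5 of 7 lower, at a summed 23.0 CPM in cKO and 31.1 CPM in WT). These counts stand beside 3.42% of all measured genes lower and 2.46% higher, and single calls in lists this short are not read as results. Fgf18 and Fgfr3 are also known from cartilage, and the part of that tissue in their levels was not tested.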

How the data were processed

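Estimated counts, TPM and FPKM for 51826 genes and 128622 transcripts were deposited by the authors, per the file headers. FPKM was used only to examine the counts. CASAVA, Bowtie2 2.3.2 and GRCm38.p6 are named in the submitters' processing notes; for the counting tool and annotation release, nothing is stated in the labels or headers. The count worked back from FPKM and transcript length was near an even number (within 0.2) in 34.6% (cKO) and 36.8% (WT) of genes with 1 transcript and at most 10 counts, and near an odd number in 19.0% and 17.6%, so 1 fragment was taken as 2 counts, which widens the intervals. Library sizes were scaled with TMM (edgeR 4.0.16, R 4.3.3), with factors of 0.9994 (cKO) and 1.0006 (WT). Exact (Clopper-Pearson) intervals of ratios, Poisson intervals of levels and Wilson intervals of shares were computed on fragments with scipy 1.17.1 at 95%. PCR copies are not independent molecules, so they cover counting error only. The interval method was run on simulated data drawn under its own assumption of 2 counts per fragment. That run cannot check the assumption, the division of reads between transcripts or differences between animals.

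No test was run, since there are no replicates to estimate a spread. The genes and lists were chosen with earlier results of these data known. Named are all 10 genes, their transcripts with at least 10% of the gene in either library, and from each list up to 4 genes past the size rule and the 2 of highest mean CPM. Named outside this rule are Fgfr1-203 and Fgfr1-214, which met the size rule, and Fgf13-202, with its short first coding stretch. Most cell type markers that this rule takes are given as list counts only, and some genes and exon sequences are not reported here. The marker lists covered mature oligodendrocytes, precursors, astrocytes, neurons, motor neurons, endothelium, meninges, ependyma, Schwann cells and cartilage. Receptor transcripts were grouped by exon after their values had been seen. All 96 transcripts were found in GENCODE M21, and 93 had the same start and end there. Spry3, fixed for the target list, was not analysed here.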

Additional observations from a re-analysis of the deposited data

How the results depend on the processing

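No paired analysis was possible because each group has 1 library, and for the same reason no library could be left out. Scaling by DESeq2 1.42.0 size factors, by the upper quartile or by total counts, the filters, a looser fold limit (log2 0.32), a limit of 2-fold, intervals on counts as deposited, sums with genes that share exons and autosomal genes only all left 0 of the 10 genes lower and 0 higher. At the looser limit Fgfr2 was only just short of a call, with a log2 ratio of -0.319 against a limit of 0.322 in size. Over the settings, Fgfr2 ranged from -0.32 to -0.27. On TPM, Fgf1 moved to 0.066 with a pseudocount of 0.1 and to 0.064 with 1, against -0.29 from counts, and Fgf13 to 0.28 with either, against 0.19. Of the pathway genes, 1 was lower and 2 higher, while with the looser limit there were 5 lower and 6 higher. Under upper quartile scaling, and with intervals on counts as deposited, 3 were higher. Only 1 was higher with a limit of 2-fold, with a mean of at least 5 CPM, or on TPM with a pseudocount of 1. Fgfr4 was the gene lost under each of these. Over all measured genes, 544 were lower and 392 higher, against 1248 and 992 with the looser limit, 183 and 130 at 2-fold, 306 and 190 with at least 5 CPM, 831 and 659 with no filter, and 338 and 300 on TPM with a pseudocount of 1. Among the marker lists, the counts past the rule fell to 1 of 8 (meninges) under upper quartile scaling and on TPM, to 0 for Schwann cells on TPM, to 0 for motor neurons and 3 for cartilage on TPM with a pseudocount of 1, and to 0 for motor neurons, ependyma and cartilage with at least 5 CPM. At 2-fold they were 6 for mature oligodendrocytes, 1 for meninges, 1 for cartilage and 0 for precursors, motor neurons, ependyma and Schwann cells. As a share of TPM, Fgfr2-207 differed by -30.5 points, against -40.1 points of counts. The division of reads between transcripts was the authors' and no other estimate was run, so its error is not known. With 2 libraries, differences between animals were not measured.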
